A study of Homo sapiens with 8 samples.

Results

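The 7 genes described here, IFI6, IFI27, IFI27L1, IFI27L2, IFI35, IFI44 and IFI44L, were taken by symbol from the 57992 genes of the Molm13 count table and followed by identifier into the THP1 table of 58174 genes. All 7 were listed in both tables and passed the filter on low counts in both lines. The RNA came from Molm13 and THP1, human acute myeloid leukemia (AML) cell lines of monocytic type. Every culture had been given doxycycline (Dox), which switched on either a control short hairpin RNA (shCtrl, genotype labelled WT) or hairpin RNA against PRMT9 (shPRMT9, labelled PRMT9 knockdown, KD), so there was no culture without Dox. Each of the 4 groups held 2 libraries of polyadenylated RNA, 8 libraries in all. Nothing in the labels says that the libraries of a group came from separate cultures, so the tests measure only the spread between libraries, which may be technical. Libraries numbered 1 and 2 were taken as replicates. The study numbers its PRMT9 hairpins in the same way, and whether the shPRMT9 libraries carry the same hairpin is not given in the sources used here. The comparison asked how loss of PRMT9, an arginine methyltransferase, changed these transcripts.

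The genes carry the prefix IFI, for interferon-induced or interferon-inducible protein. Type I interferon binds the receptor made of IFNAR1 and IFNAR2, the kinases JAK1 and TYK2 then activate transcription factors that include STAT2 and IRF9, and these bind interferon-stimulated response elements (ISRE) in promoters. IFI6, IFI27, IFI27L1 and IFI27L2 encode small hydrophobic proteins of one family, and IFI6 and IFI27 are known for restricting viruses and for acting on apoptosis. IFI44 and IFI44L are paralogs that lie side by side on chromosome 1, and IFI35 encodes a cytoplasmic protein that forms a complex with NMI. IFI27 and IFI44L are widely used as blood markers of an interferon response.

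The library totals ranged from 18720950 to 27356870 counts, and PRMT9 itself fell in both lines. PRMT9 had 332 and 289 counts in Molm13 with shCtrl and 41 and 56 with shPRMT9, and 317 and 352 against 60 and 68 in THP1. The titles of the libraries labelled THP1 include OCI, a prefix of other leukemia and lymphoma lines, while the cell line field gives THP1, and THP1 stands below for the libraries so labelled. Of 12 myeloid AML markers, CD14 in Molm13 and MEIS1 in THP1 had at most 10 counts in every library. All 3 T-cell and both erythroid markers had at most 10 counts throughout, as did the B-cell markers MS4A1 and CD79A in both lines. The summed level of the myeloid markers moved with shPRMT9, from 1522 to between 2142 and 2185 CPM (counts scaled by library size) in Molm13 and from between 2480 and 2491 to between 3811 and 3957 CPM in THP1. LYZ, the lysozyme gene, made up much of that sum, at 633 and 634 CPM against 985 and 1010 CPM in Molm13 and 1886 and 1889 against 3172 and 3020 CPM in THP1. CSF1R, ITGAM, CD68 and LYZ were called higher in both lines and CD14 in THP1, whereas MPO, the gene of myeloperoxidase, had a log2 fold change of -0.56 in Molm13, under the fold limit, and fell in THP1 (-0.82, edgeR adjusted p = 2.23e-05). The part of these markers in the results below was not tested. In bulk RNA, more cells of a type and more RNA per cell cannot be told apart.

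To show what the 7 genes carry at their start, the 170 bases before the first RefSeq start site are printed below for each gene (RefSeq, GRCh38.p14, 5′ to 3′ on the gene's strand). Capitals mark matches to the ISRE core on either strand, which is TTTC followed by any 2 bases and TTTC again, or GAAA, any 2 bases and GAAA on the other strand.
IFI6 (chr1:27672193-27672362, minus strand): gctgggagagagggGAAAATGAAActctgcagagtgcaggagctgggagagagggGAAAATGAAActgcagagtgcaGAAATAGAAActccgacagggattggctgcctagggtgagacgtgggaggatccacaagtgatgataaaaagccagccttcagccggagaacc
IFI27 (chr14:94110566-94110735, plus strand): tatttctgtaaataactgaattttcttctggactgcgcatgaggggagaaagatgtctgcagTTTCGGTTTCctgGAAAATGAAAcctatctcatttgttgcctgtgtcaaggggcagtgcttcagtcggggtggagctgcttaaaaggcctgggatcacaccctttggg
IFI44 (chr1:78649619-78649788, plus strand): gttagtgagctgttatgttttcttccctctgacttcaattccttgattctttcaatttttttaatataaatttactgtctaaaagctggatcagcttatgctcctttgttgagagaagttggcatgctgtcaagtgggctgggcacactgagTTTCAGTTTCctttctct
IFI44L (chr1:78620278-78620447, plus strand): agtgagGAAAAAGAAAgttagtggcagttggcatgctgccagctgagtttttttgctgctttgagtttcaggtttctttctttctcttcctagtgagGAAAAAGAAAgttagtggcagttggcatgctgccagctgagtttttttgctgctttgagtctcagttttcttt
IFI35 (chr17:43006614-43006783, plus strand): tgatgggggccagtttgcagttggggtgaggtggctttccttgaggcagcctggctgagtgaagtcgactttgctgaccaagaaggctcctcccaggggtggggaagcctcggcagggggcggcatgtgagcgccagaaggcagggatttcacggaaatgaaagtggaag
IFI27L1 (chr14:94081140-94081309, plus strand): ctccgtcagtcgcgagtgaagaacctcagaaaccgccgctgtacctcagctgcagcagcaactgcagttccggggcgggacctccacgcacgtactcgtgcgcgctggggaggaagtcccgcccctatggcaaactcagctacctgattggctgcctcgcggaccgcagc
IFI27L2 (chr14:94129605-94129774, minus strand): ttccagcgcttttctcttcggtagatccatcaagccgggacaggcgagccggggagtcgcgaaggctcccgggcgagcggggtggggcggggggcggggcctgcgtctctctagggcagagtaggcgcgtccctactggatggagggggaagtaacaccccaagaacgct

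The core was found in 4 of the 7 genes, IFI6, IFI27, IFI44 and IFI44L, and in none of the windows of IFI35, IFI27L1 and IFI27L2. Over the whole window, from 250 bases before to 50 after the start, it occurred in 3.57% of 35116 windows and in 4.38% of 27305 genes. IFI6 held 3 matches, whose first bases lie at -156, -115 and -93 from the start. IFI27 held 2, at -108 and -95, with a match to the interferon-gamma type core TTCNNNGAA (GAS core) between and overlapping both. IFI44 held 1 match at -18 and IFI44L held 2, at -164 and -73. IFI35 had the GAS core, at -22, and no ISRE core. The GAS core was found in 7.66% of all windows. A match is a run of letters and does not show that a factor binds there. Only exact matches were counted, so a window without a match may still hold a near match.

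**Figure D1:**
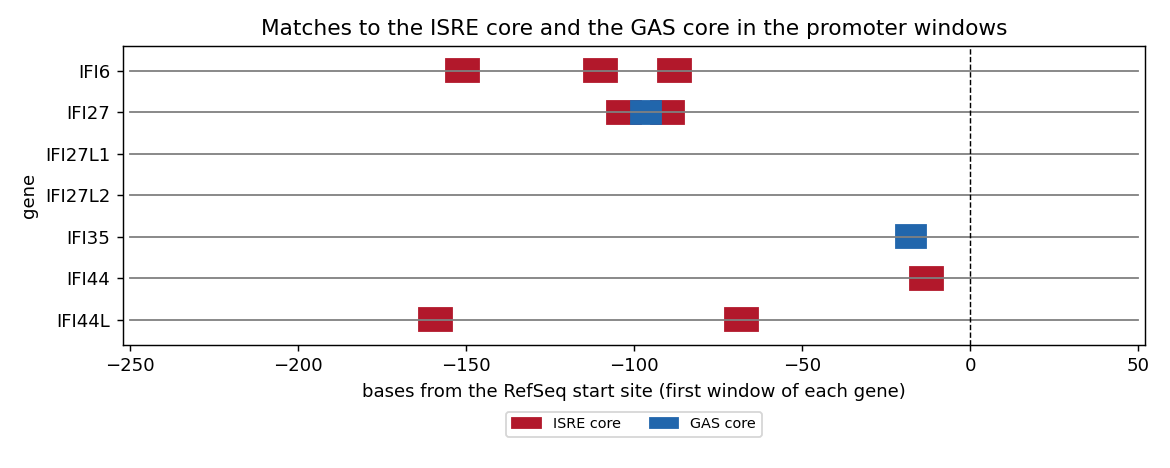
Each line is the 300-base RefSeq promoter window of 1 of the 7 genes, with distance in bases from the start site on the x axis (dashed line at 0). Red boxes are ISRE cores, present in IFI6, IFI27, IFI44 and IFI44L, and blue boxes are GAS cores, present in IFI27, where the box overlaps both red ones, and in IFI35.

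In IFI6 and IFI44L, part of the promoter was repeated, with a copy of the ISRE core in each repeat. In IFI44L a stretch of 85 bases recurred without a mismatch 91 bases further on, and a repeat of at least this length was present in 0.0683% of all windows. In IFI6 a stretch of 29 bases recurred 41 bases further on, which 0.809% of windows matched or exceeded. The other 5 genes had repeats of 7 to 9 bases, lengths that 39.8% or more of windows reached. Base composition also varied among the 7 genes. The 250 bases before the start held 64.8% G or C with 22 CG pairs in IFI27L1 and 64% with 19 pairs in IFI27L2, whereas IFI44L held 40.4% and IFI44 34%, both with 0 CG pairs. The median over all windows was 58% and 11 pairs.

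In Molm13 cells, PRMT9 KD raised 5 of the 7 genes, IFI6, IFI27L2, IFI35, IFI44 and IFI44L, and none fell. A gene was called when edgeR's quasi-likelihood test gave a Benjamini-Hochberg adjusted p below 0.05, the fold change passed 1.5 and the level reached 1 RPKM (reads per kilobase of exon, scaled to library size) in at least 1 library. Over all 16446 genes tested in Molm13, 11.4% were called higher by this rule and 11.3% lower. In THP1 cells 6 of the 7 genes were called higher, all except IFI27L1, and none lower, against 3.83% called higher and 2.39% called lower of 16294 genes tested. The median log2 fold change of the 7 was 3.41 in Molm13 and 3.56 in THP1, beside medians over all tested genes of 0.000472 and -0.000631.

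**Figure D2:**
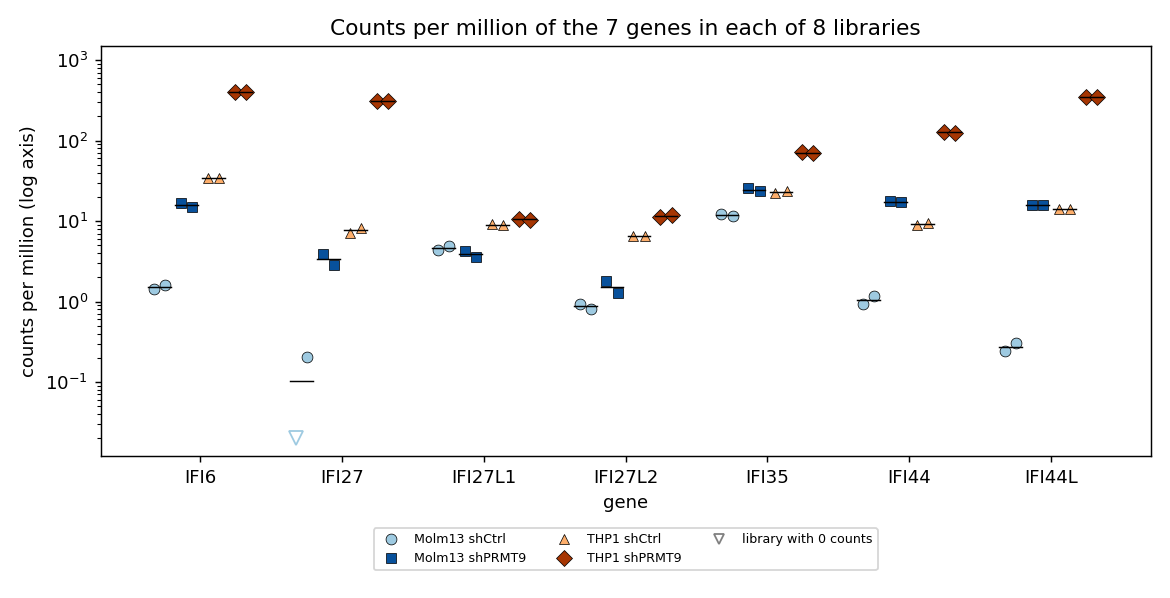
CPM of each gene in each of the 8 libraries, on a log axis, with a bar at the mean of each pair. The open triangle is the Molm13 shCtrl library with 0 IFI27 counts, drawn at the bottom because 0 has no place on a log axis. For IFI6, IFI27, IFI44 and IFI44L both shPRMT9 libraries stand far above both shCtrl libraries in each line, whereas for IFI27L1 the symbols lie close together. Higher libraries without overlap, at any distance, were seen for 41.2% of all genes tested in Molm13 and 33% in THP1.

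IFI6 (ENSG00000126709, chromosome 1, 27666061 to 27672218, minus strand, GRCh38) had 29 and 31 counts in Molm13 with shCtrl and 320 and 318 with shPRMT9. In THP1 it had 871 and 959 counts with shCtrl and 10190 and 9982 with shPRMT9. Both shPRMT9 libraries lay above both shCtrl libraries in each line, as they did for 41.2% of all genes in Molm13 and 33% in THP1. The rise was 10.6-fold in Molm13 and 11.8-fold in THP1. The log2 fold changes were 3.41 ± 0.15 (SE, 2 against 2 libraries, edgeR adjusted p = 1e-23) and 3.56 ± 0.04 (edgeR adjusted p = 1.12e-30). The difference between the lines, THP1 minus Molm13, was 0.16 with an interval of 2 SE from -0.23 to 0.56 (edgeR adjusted p = 0.582). The libraries therefore do not exclude that the rise was up to 1.47-fold larger in THP1.

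IFI27 (ENSG00000165949, chromosome 14, 94104836 to 94116698, plus strand) was nearly silent in the Molm13 control cells, with 0 and 4 counts, and had 73 and 61 counts after KD. In THP1 it had 185 and 226 counts with shCtrl and 7671 and 7656 with shPRMT9, the largest fold change of the 7 genes in that line. The log2 fold changes were 4.99 ± 0.45 (edgeR adjusted p = 3.06e-13) and 5.32 ± 0.05 (edgeR adjusted p = 2.02e-31), 31.7-fold and 39.8-fold. In Molm13 the value rests on few control reads: without shCtrl replicate 1 it was 3.99, and without replicate 2 the remaining control library held 0 counts, so that the fitted 9.08 is no bound. IFI27 was not called in Molm13 because its highest level there was 0.941 RPKM, below the limit of 1, on the scale of the fit of that line alone. That RPKM divides by 4147 bases, the length of all annotated exons together, while the principal transcript, as GENCODE 29 gives it, is 725 bases long. By the length of the principal transcript, a choice made after the data were seen, the mean level in the Molm13 shPRMT9 libraries was 4.64 RPKM and 6 of the 7 genes were called. The difference between the lines was 0.34 ± 0.96 (edgeR adjusted p = 0.869), an interval too wide to compare the lines.

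The other 2 genes of the family on chromosome 14 had the smallest changes of the 7. IFI27L2 (ENSG00000119632, 94127779 to 94130253, minus strand) had 19 and 16 counts against 34 and 27 in Molm13, and 168 and 179 against 280 and 296 in THP1. The shPRMT9 libraries lay above the shCtrl libraries in both lines, as for 41.2% of all genes tested in Molm13 and 33% in THP1. The rise was 1.74-fold (log2 0.80 ± 0.32, edgeR adjusted p = 0.026) and 1.77-fold (log2 0.83 ± 0.11, edgeR adjusted p = 4.72e-07). In Molm13 the call was not kept by DESeq2 (adjusted p = 0.2) nor without shCtrl replicate 1 (edgeR adjusted p = 0.0581), shCtrl replicate 2 (0.109) or shPRMT9 replicate 1 (0.318). IFI27L1 (ENSG00000165948, 94081282 to 94103846, plus strand) was the exception among the 7. It had 90 and 96 counts with shCtrl and 81 and 77 with shPRMT9 in Molm13, and 235 and 245 against 267 and 255 in THP1. Its log2 fold changes were -0.23 ± 0.17 (edgeR adjusted p = 0.213) and 0.22 ± 0.10 (edgeR adjusted p = 0.102), with intervals of 2 SE that leave room for changes from 0.676-fold to 1.07-fold in Molm13 and from 1.01-fold to 1.34-fold in THP1.

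IFI44 (ENSG00000137965, chromosome 1, 78649796 to 78664078, plus strand) had 19 and 23 counts with shCtrl and 338 and 364 with shPRMT9 in Molm13, and 230 and 261 against 3192 and 3078 in THP1. It rose 16.6-fold (log2 4.06 ± 0.16, edgeR adjusted p = 6.27e-26) and 13.6-fold (log2 3.77 ± 0.06, edgeR adjusted p = 6.99e-27). Its paralog IFI44L (ENSG00000137959, 78619922 to 78646145, plus strand) ends 3651 bases before IFI44 begins. IFI44L had the largest fold change of the 7 in Molm13, from 5 and 6 counts to 299 and 333, and in THP1 went from 363 and 395 to 8770 and 8544. The log2 fold changes of IFI44L were 5.81 ± 0.21 (edgeR adjusted p = 6.31e-27) and 4.61 ± 0.05 (edgeR adjusted p = 2.02e-31). In both lines the paralogs rose without overlap between the groups, as did 41.2% of all genes tested in Molm13 and 33% in THP1.

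IFI35 (ENSG00000068079, chromosome 17, 43006725 to 43014456, plus strand) had the highest level per length of the 7 in the Molm13 control cells and the smallest rise among the genes other than IFI27L1 and IFI27L2. It had 247 and 229 counts with shCtrl and 484 and 503 with shPRMT9 in Molm13, and 574 and 654 against 1803 and 1725 in THP1. The rise was 2.07-fold (log2 1.05 ± 0.08, edgeR adjusted p = 3.44e-15) and 3.07-fold (log2 1.62 ± 0.06, edgeR adjusted p = 5.06e-19). NMI, its binding partner, was not called in either line, at log2 0.34 ± 0.04 in Molm13 and 0.18 ± 0.04 in THP1.

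**Figure D3:**
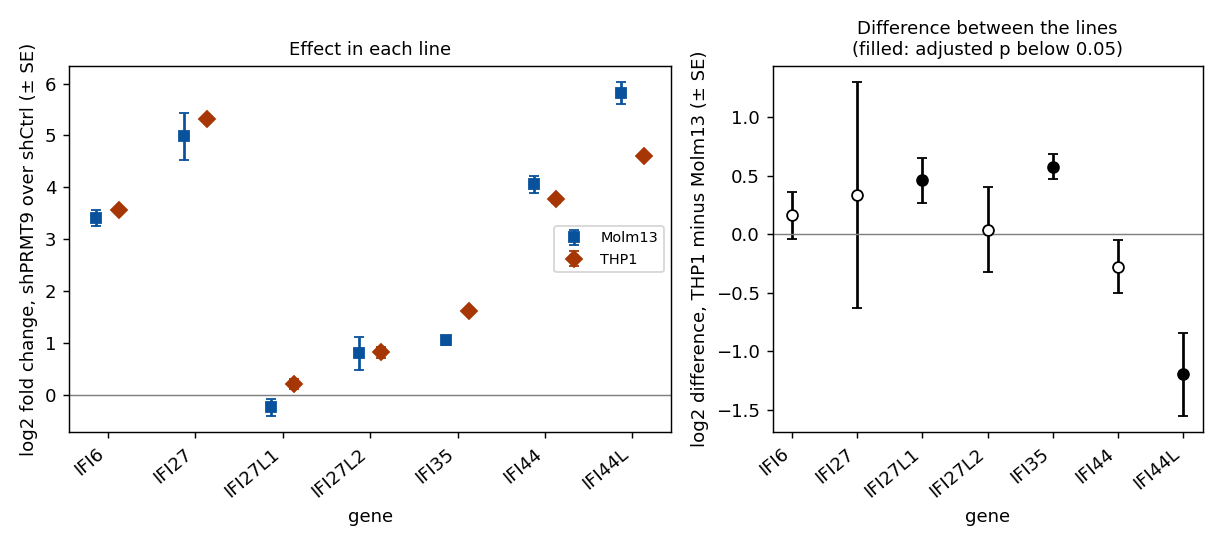
Left, log2 fold change of shPRMT9 over shCtrl with its standard error for each gene in Molm13 (squares) and THP1 (diamonds), each from a fit of 4 libraries. Right, the difference of these effects, THP1 minus Molm13, from a fit of all 8 libraries, filled where the adjusted p was below 0.05: IFI27L1 (0.46), IFI35 (0.58) and IFI44L (-1.20).

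The difference between the lines was tested in a fit of all 8 libraries, and 3 of the 7 genes passed an adjusted p of 0.05, beside 42.2% of 19288 genes. IFI35 rose more in THP1 (0.58 ± 0.11 on the log2 scale, edgeR adjusted p = 2.83e-06), and this was kept in each alternative tried. IFI44L rose more in Molm13 (-1.20 ± 0.35, edgeR adjusted p = 0.00449), where its control level was 11 counts over both libraries. Without Molm13 shCtrl replicate 1 the difference for IFI44L was -1.07 with an edgeR adjusted p of 0.0903. IFI27L1 passed narrowly (0.46 ± 0.19, edgeR adjusted p = 0.0459) and was kept in 1 of 15 alternatives, and DESeq2 gave an adjusted p of 0.223. For IFI44 the difference was -0.27 ± 0.23 (edgeR adjusted p = 0.365) and for IFI27L2 0.04 ± 0.36 (edgeR adjusted p = 1).

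Before KD, all 7 genes were already higher in THP1 than in Molm13 shCtrl cells, where 40.1% of 19288 genes were higher in THP1 by the edgeR adjusted p alone. The line cannot be told apart from the handling of its libraries. The gap was widest for IFI27 (log2 6.19 ± 0.30), followed by IFI44L (5.66 ± 0.20) and IFI6 (4.51 ± 0.11). It was 3.13 ± 0.17 for IFI44 and 2.89 ± 0.21 for IFI27L2, and 0.95 for both IFI35 (SE 0.08) and IFI27L1 (SE 0.13). Without 1 of the Molm13 shCtrl libraries the gap for IFI27 ranged from 5.21 to 10.5. The upper value rests on a remaining control library with 0 counts and is no bound. In Molm13 shCtrl, IFI27 and IFI44L had the lowest levels per length, 0.141 ± 0.199 and 0.0469 ± 0.00737 RPKM by the principal transcript (SD, n = 2), and they had the largest fold changes there.

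The control level of THP1 was close to the KD level of Molm13 for some of the genes. IFI44L stood at 14.2 ± 0.111 CPM (SD, n = 2) in THP1 shCtrl and 15.7 ± 0.133 CPM in Molm13 shPRMT9 (log2 difference -0.14 ± 0.08, edgeR adjusted p = 0.0764). IFI35 stood at 23.0 ± 0.927 and 24.6 ± 1.41 CPM (log2 -0.09 ± 0.07, edgeR adjusted p = 0.215). IFI44 was lower in THP1 shCtrl, at 9.20 ± 0.344 against 17.5 ± 0.563 CPM (log2 -0.92 ± 0.09, edgeR adjusted p = 1.31e-16). The 4 genes of the IFI6 and IFI27 family were higher in THP1 shCtrl, by log2 1.11 for IFI6, 1.21 for IFI27, 1.19 for IFI27L1 and 2.10 for IFI27L2, where 41.3% of all genes were higher.

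Together the 7 genes made up 20.0 and 20.7 CPM in the Molm13 shCtrl libraries, 86.2 and 79.0 CPM after KD, 102 and 106 CPM in THP1 shCtrl and 1285 and 1276 CPM after KD. The makeup of this sum, in reads and not per length, differed between the groups. In Molm13 shCtrl, IFI35 held 60.4% and 56.5% of it and IFI27L1 22% and 23.7%. After KD in THP1, IFI6 held 31.7% of the sum in both libraries, IFI44L 27.3% and 27.1% and IFI27 23.8% and 24.3%, while IFI35, whose own level rose, held 5.60% and 5.47%, against 21.9% and 22.4% in THP1 shCtrl.

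Levels of different genes can be compared only per length, and for these genes the order turned on which length was used. By the principal transcript, the THP1 shPRMT9 level was 493 ± 2.57 RPKM for IFI6 and 425 ± 3.39 RPKM for IFI27 (SD, n = 2), well above IFI44 at 74.7 ± 1.22, IFI44L at 59.2 ± 0.539 and IFI35 at 57.5 ± 1.26 RPKM. IFI27L2 (22.7 ± 1.10 RPKM) and IFI27L1 (15.4 ± 0.357 RPKM) were lowest. By the length of all exons IFI6 stood at 469 ± 2.44 RPKM and IFI27 at 74.3 ± 0.593 RPKM, and IFI35 (35.9 ± 0.787 RPKM) came before IFI44L (34.0 ± 0.309 RPKM). In Molm13 shCtrl, IFI35 was highest by either length, at 9.65 ± 0.237 RPKM by the principal transcript, followed by IFI27L1 at 6.84 ± 0.510 RPKM. There IFI6 (1.83 ± 0.139 RPKM) and IFI27L2 (1.71 ± 0.158 RPKM) did not differ beyond their spread by the principal transcript, but by all exons they stood apart, at 1.74 ± 0.132 and 0.526 ± 0.0486 RPKM. After KD in Molm13, IFI35 (20.0 ± 1.15 RPKM) and IFI6 (19.4 ± 1.72 RPKM) likewise overlapped by the principal transcript, whereas by all exons IFI6 (18.4 ± 1.64 RPKM) lay above IFI35 (12.5 ± 0.715 RPKM). In THP1 shCtrl, again by the principal transcript, IFI6 led at 41.7 ± 0.672 RPKM, IFI27L1 (13.2 ± 0.298 RPKM) and IFI27L2 (12.7 ± 0.0903 RPKM) were close, and IFI44L was lowest at 2.42 ± 0.0189 RPKM.

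**Figure D4:**
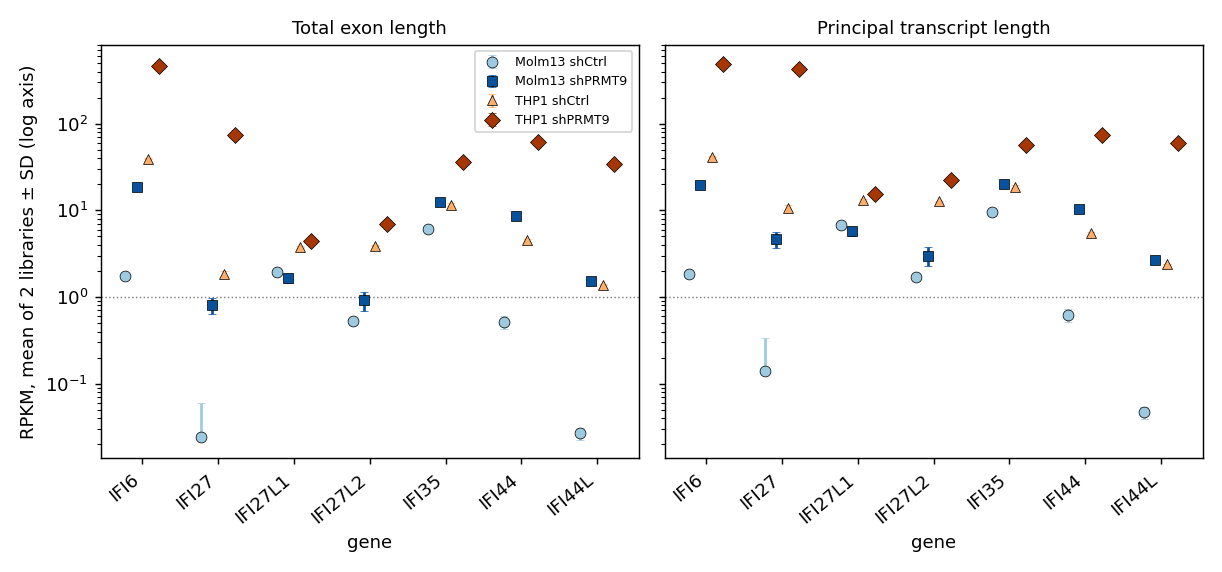
Mean RPKM of each gene in each group with the SD of 2 libraries, on a log axis, by the length of all exons (left) and of the principal transcript (right); the dotted line is the limit of 1 RPKM. The lower bar is left out for IFI27 in Molm13 shCtrl, where the SD exceeds the mean, and IFI27 after KD in Molm13 lies below the limit on the left (0.811) and above it on the right (4.64).

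Of the genes that act upstream, the 10 interferon genes listed had too few counts to be tested. IFNB1 had 0 and 1 counts with shCtrl and 3 and 2 with shPRMT9 in Molm13, and 1 and 1 against 10 and 8 in THP1. Among receptors and kinases, 3 of 8 tested were called higher in Molm13 and 2 of 9 in THP1, none lower. Of all genes tested, 11.4% were called higher and 11.3% lower in Molm13, and 3.83% and 2.39% in THP1. IFNGR2 was called in both lines, at log2 0.83 ± 0.04 in Molm13 and 0.83 ± 0.06 in THP1. IFNAR1 (0.62 ± 0.04) and IL10RB (0.86 ± 0.05) were called in Molm13, and IFNGR1 in THP1 (0.67 ± 0.04). Among 6 transcription factors, 3 were called higher in each line and none lower. STAT2 (1.65 ± 0.04 and 1.26 ± 0.04), IRF9 (1.91 ± 0.18 and 0.67 ± 0.12) and IRF7 (1.95 ± 0.08 and 1.61 ± 0.05), which amplifies interferon production, were called in both lines. USP18, a feedback inhibitor at the type I receptor, was called in both, at 0.77 ± 0.17 in Molm13 and 3.01 ± 0.08 in THP1. Of the other feedback inhibitors listed, SOCS3 was called in both (0.88 ± 0.16 and 0.66 ± 0.21). SOCS1 was called in Molm13 (0.71 ± 0.22) and not in THP1 (0.41 ± 0.27). DESeq2 gave an adjusted p of 0.114 for SOCS3 in THP1 and 0.0788 for SOCS1 in Molm13.

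Of 27 other classic interferon-stimulated genes, 24 were called higher in Molm13 and 26 in THP1, none lower, with median log2 fold changes of 1.45 and 2.43. The shares called higher over all genes tested were 11.4% in Molm13 and 3.83% in THP1. Among these the largest values were 4.15 for EPSTI1 in Molm13 and 3.64 for CXCL10, a chemokine that attracts T cells, in THP1. MX1, an antiviral GTPase, resembled IFI27 in Molm13: its log2 fold change was 1.84 ± 0.33 and its edgeR adjusted p 3.84e-06, and it was not called because it stayed under 1 RPKM. LY6E was 0.16 ± 0.04 in Molm13, not called, and 2.48 ± 0.05 in THP1. The ISRE core was present in 16 of the 21 genes of this list with a RefSeq window, or 76.2%, beside 57.1% of the 7 genes.

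**Figure D5:**
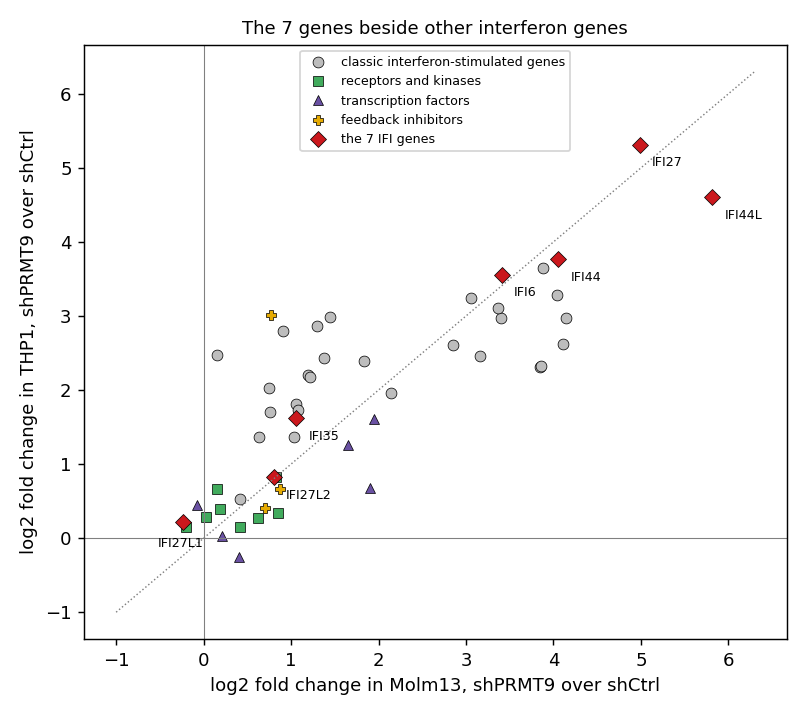
Each point is one of the 7 genes or a gene of the interferon lists that was tested in both lines, at its log2 fold change of shPRMT9 over shCtrl in Molm13 (x axis) and in THP1 (y axis), and the dotted line marks equal values. IFI27 and IFI44L lie farthest out of these plotted genes on both axes, IFI44 and IFI6 lie among the highest classic genes, and IFI27L1 lies near 0.

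The genes whose profile over the 8 libraries was closest to each member were sought among 11373 protein-coding genes tested in both lines, by the root-mean-square distance of centred log2 CPM. The libraries of a group share their line and treatment, so the distance mostly compares 4 group levels. IFI6 was closest to OAS3, an antiviral 2-5A synthetase (distance 0.147), and to LGALS3BP (0.497). IFI27 was closest to IFI6 (0.709) and IFI44L (0.752), and IFI44L to IFI6 (0.601) and OAS3 (0.716). IFI44 was closest to IFITM1, which restricts virus entry (0.322), and to EPSTI1 (0.356). IFI35 was closest to CD209, a lectin of macrophages and dendritic cells (0.101), with counts of 213 and 184 against 361 and 383 in Molm13 and 454 and 477 against 1586 and 1537 in THP1. TMEM119 followed (0.148), although it had 0 and 0 counts in Molm13 shCtrl and 14 and 12 after KD, where distances say little. IFI27L2 was closest to ZNF366 (0.155) and ANXA2 (0.162), and IFI27L1 to BLOC1S3 (0.0631) and CBL (0.0641), which encodes a ubiquitin ligase.

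Within 100 kb of a member lay 30 other genes, 17 of them protein-coding. In Molm13, 15 were tested, of which 2 were called higher and 1 lower, and in THP1 13 were tested, of which 1 was called higher. Of all genes tested, 11.4% were called higher and 11.3% lower in Molm13 and 3.83% and 2.39% in THP1, so these counts are near the background and say nothing particular of the neighbours. FGR, a Src family kinase near IFI6, rose in Molm13 (log2 0.82, 100 and 102 counts against 160 and 196), as did PTGES3L near IFI35 (0.65), whereas BRCA1, a DNA repair gene near IFI35, fell (-0.98). In THP1 the call was the processed pseudogene RP4-641G12.3, which begins 2194 bases after the end of IFI44 on the same strand and went from 1 and 1 to 14 and 11 counts (log2 3.58). DESeq2 gave it no adjusted p, and a filter of 1 CPM in 2 libraries removed it. The antisense gene RP11-288L9.4 overlaps IFI6 by 2751 bases and had at most 2 counts in any library. Whether the counting used strand is not given in the sources used here.

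At the start of IFI27L1, the RNA helicase gene DDX24 begins 37 bases away on the opposite strand. DDX24 had 4741 and 4570 counts against 3421 and 3978 in Molm13 and 5577 and 5895 against 6537 and 6248 in THP1, so it was lower after KD in Molm13 (log2 -0.33) and higher in THP1 (0.25), neither past the fold limit. IFI27L1 had values of the same sign in each line (-0.23 and 0.22). At the end of IFI35, not its start, VAT1 lies 149 bases away on the opposite strand. VAT1 stood at 0.13 in Molm13 and -0.10 in THP1, where IFI35 rose in both. None of the 50-base stretches of the principal transcripts of the 7 genes occurred in transcripts of another gene in GENCODE 29. Exact reads of this length from the principal transcripts would therefore not be shared with the paralogs. Exons outside the principal transcripts and reads with mismatches were not checked.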

How the data were processed

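Polyadenylated RNA of Molm13 and THP1 cells was sequenced in 8 libraries. Per the submitters' notes, the reads were aligned to hg38 with TopHat2 2.0.8, counted with HTSeq 0.11.2 and analysed with edgeR 3.30.3. The authors deposited raw counts, whole reads per gene without normalization, in 1 table per line. The annotation and the strand setting are not given in the sources used here. The Molm13 table also holds symbols, coordinates and exon lengths.

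From the counts, each line was fitted alone in R 4.3.3 with edgeR 4.0.16 (TMM, filterByExpr, quasi-likelihood test, Benjamini-Hochberg adjustment over all genes), without a replicate block. Genes were called at an FDR under 0.05 with a change of over 1.5-fold in either direction, and RPKM, on the scale of each line's own fit, had to pass 1 in 1 or more libraries. A fit of all 8 libraries over 19288 shared genes gave the contrasts between the lines, of which those involving shPRMT9 levels were added after seeing the data. SE was taken as the size of the log2 fold change over the square root of F, and printed CPM and RPKM levels use TMM factors of the 8 libraries. Sequences and motifs come from RefSeq windows, types and transcripts from GENCODE 29. Alternatives were other normalizations, filters, DESeq2 1.42.0, a common fit, a replicate block, other limits and leaving out each library. The code was tested on simulated data. Counting error alone sets the precision of counts near 0.

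The genes named are the 7 members, PRMT9, genes of the interferon lists, the 2 nearest profiles per member, and neighbours that overlap a member or were called. One listed gene was left out and its values are not given here. DDX24, VAT1 and NMI were named for their position or binding. The members and the lists were chosen with earlier results of these data known.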

Additional observations from a re-analysis of the deposited data

Results flagged for a closer look

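In edgeR's fit of 8 libraries, 27 of 44 named genes tested had an effect of shPRMT9 that was not the same in both lines (adjusted p of the interaction below 0.05), beside 42.2% of all 19288 genes. Some of the named genes were chosen because they were called in a line, so their share cannot be set against that of all genes as like with like. Values are THP1 minus Molm13 on the log2 scale. Of the 7 genes these were IFI27L1 (0.46), IFI35 (0.58) and IFI44L (-1.20).

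Among receptors and kinases the differences were -0.33 for IFNAR1, 0.26 for IFNAR2, 0.53 for IFNGR1, -0.51 for IL10RB, -0.25 for JAK1, 0.36 for JAK2 and 0.22 for TYK2. Among the factors, STAT2 gave -0.38, IRF9 -1.22, IRF1 0.53 and IRF7 -0.33. USP18 gave 2.25, NMI -0.15, LY6E 2.33 and EPSTI1 -1.15.

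Among the genes with the most similar profile or nearby position, BLOC1S3 gave 0.42, CBL 0.42, ANXA2 0.65, CD209 0.95, PTGES3L -1.18, BRCA1 1.02, DDX24 0.60 and VAT1 -0.22. TMEM119 gave -5.03, but it had 0 counts in both Molm13 shCtrl libraries, so that its fitted value depends on the prior count and is no bound.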

How the results depend on the processing

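The calls of IFI6, IFI35, IFI44 and IFI44L in each line and of IFI27 in THP1 were kept under every alternative tried. The number of members called ranged from 4 to 5 in Molm13 and was 6 in THP1 when 1 library was left out, and from 1 to 3 for the difference between the lines, 1 without Molm13 shCtrl replicate 1. No RPKM minimum, RPKM by principal transcript length, or the fit of all 8 libraries, where THP1 levels also meet the minimum, gave 6 in Molm13, DESeq2 gave 4, and a 2-fold limit gave 4 in Molm13 and 5 in THP1. Of 15 alternatives, the IFI27L1 difference passed in 1 only. It gave 0.44 with RLE, 0.42 by library size alone, 0.45 without a filter, 0.43 with the CPM filter and by DESeq2, 0.31 thinned, and 0.46 (adjusted p = 0.053) with a replicate block.

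Differences that changed sign were those of IFI27 (from -4.01 without Molm13 shCtrl replicate 2 to 1.30 without replicate 1) and IFI27L2 (-0.0053 by library size alone and from -0.249 to 0.269 with 1 library left out). IFNAR2 in Molm13 was -0.0506 without shPRMT9 replicate 1 and 0.138 without replicate 2, and BRCA1 in THP1 -0.0017 by library size alone. Without Molm13 shCtrl replicate 2 the remaining control library held 0 IFI27 counts, so that -4.01 is no bound. The cause of the other sign changes was not tested. Pathway genes called went to 16 in each line without a fold limit, and to 3 in each above 2-fold. Neighbours called in THP1 went to 0 with the CPM filter and by DESeq2, to 2 in the common fit, and from 1 to 2 with 1 library left out.

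Replicate numbers are shared by the groups, but same-numbered libraries did not deviate together (correlation -0.074 over 12586 genes in Molm13 and -0.023 over 12102 in THP1). With the replicate block, 3711 genes were called in Molm13 (3744 without) and 1019 in THP1 (1013 without), and 5 and 6 members. Depth limits IFI27, IFI27L2 and IFI44L in Molm13, whose control libraries held at most 19 counts. Only 2 of 14 nearest genes were also nearest by the fitted fold changes.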
